A study of Mus musculus with 8 samples.

Results

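The genes Clca3a1, Clca3a2, Kif26b, Scg2, Gdf6, Nkd1 and Xkr4 were examined in primary mouse vascular smooth muscle cells that overexpressed THOC5 or GFP. They are 7 of the 27249 genes in the deposited table. They were chosen on measured values: low expression in GFP cells kept in osteogenic medium, and higher expression in THOC5 cells kept in the same medium. Those comparisons are therefore given as descriptions, with no test. Results of all 8 libraries were known when the genes were chosen, so values in the remaining comparisons are not independent of the choice either. The name under which the genes were grouped, largest expression restored by THOC5, fitted 4 of them best. Of 22575 genes tested, Clca3a2, Kif26b, Scg2 and Gdf6 ranked 1, 3, 7 and 9 by the THOC5 minus GFP difference in osteogenic medium. Clca3a1 ranked 104, Nkd1 309 and Xkr4 1532, so the name does not describe Xkr4 well.

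The design had 4 groups of 2 libraries each. The first group overexpressed THOC5 and was kept in osteogenic medium, and the second overexpressed GFP, carried the genotype label WT and was kept in the same medium. The third group overexpressed THOC5 in growth medium, and the fourth overexpressed GFP in growth medium with the genotype label WT. The series' design text gives the osteogenic treatment as inorganic phosphate (Pi) for 6 days, and its question is how THOC5 affects expression during the osteogenic transition. All cells carried an overexpressed gene, so cells without one are not part of the comparison. The sources do not name the overexpression vector, the strain, age or number of the mice, or how long the cells stayed in growth medium. Nothing in the labels says that replicates came from separate cultures, so p-values measure the spread between libraries, which may be technical.

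As background, THOC5 is a subunit of the THO complex, part of the TREX complex that couples transcription and processing of messenger RNA to its export from the nucleus. Vascular smooth muscle cells normally contract, and high phosphate is widely used in culture to drive them toward a calcifying, bone-cell-like state. The 7 genes belong to different families. Clca3a1 and Clca3a2 encode calcium-activated chloride channel regulators, Scg2 encodes secretogranin II, a granin of secretory granules and the precursor of the peptide secretoneurin, and Gdf6 encodes a ligand of the bone morphogenetic protein (BMP) family. Nkd1 encodes an inhibitor of Wnt signalling that binds Dishevelled, Kif26b encodes an unconventional kinesin linked to Wnt5a and Ror receptor signalling, and Xkr4 encodes an XK-family membrane protein with caspase-activated lipid scrambling activity.

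The libraries held 7058681 to 10581042 reads assigned to genes, and a count of 3 reads corresponded to 2.59 to 3.99 normalised counts. Normalised counts here are read counts that the authors divided by a factor per library. Thoc5 had 1780.2 and 1937 normalised counts in THOC5 osteogenic libraries, against 649.5 and 615 in GFP osteogenic libraries. Without phosphate, Thoc5 had 2155 and 1406 in THOC5 growth libraries, against 458 and 471 in GFP growth libraries. The higher level in THOC5 cells passed limma's test in growth medium (log2 change 1.90 ± 0.15, SE, n = 2 each, adjusted p = 0.00187). The growth-medium call was lost when any of the 4 osteogenic libraries was left out of the shared fit, and edgeR and DESeq2 each called 1 gene in that comparison. The authors' own test gave Thoc5 an adjusted p of 4.59e-28 there. In osteogenic medium Thoc5 was also higher in THOC5 cells (log2 change 1.55 ± 0.15, limma adjusted p = 5.24e-05). Smooth muscle markers were present in all libraries, led by Acta2, but Des and Myocd were below 26 normalised counts throughout.

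The GFP osteogenic libraries stood apart from the other 6 on the leading principal component, with scores of 84.2 and 65.9 against -34.8 to -18.4, and this component held 32.6% of the variance. Every low value described for the 7 genes comes from these 2 libraries. The summed smooth muscle markers (10 of 10 with reads in every group) were 25890 to 27956 normalised counts in THOC5 osteogenic, 12066 to 13964 in GFP osteogenic, 31918 to 32652 in THOC5 growth and 25286 to 29627 in GFP growth libraries. The 8 adventitial fibroblast markers summed to 21706 to 22912 in THOC5 osteogenic, 7009 to 9746 in GFP osteogenic, 24095 to 24579 in THOC5 growth and 19634 to 22203 in GFP growth libraries. In GFP osteogenic libraries 6 of these 8 had reads, with Dpt and Pi16 at 0, and in the other groups 8 of 8. Dpt and Pi16 had at most 3.82 normalised counts in any library, close to the counting floor, so this count is uncertain. Not every marker was lower in GFP osteogenic than in GFP growth libraries. Ly6a had 1934 and 2618 against 2028 and 1993. Des had 25.9 and 18.8 against 9.32 and 10.6, and Myocd 16.4 and 15.2 against 10.5 and 14.6. Endothelial markers summed to at most 140.0 in any library, over 6 of 8 listed, since the deposited genes do not include Cdh5 and Emcn. Schwann cell and neuron markers summed to at most 994, over 11 of 13 listed, with Sox10 and Chga missing from the deposited genes. Macrophage markers summed to at most 1231 and epithelial and mesothelial markers to at most 681. Macrophage sums were 680 to 694 in GFP osteogenic and 948 to 1182 in GFP growth libraries. Schwann cell and neuron sums were 579 to 658 and 925 to 994 in these groups, and endothelial sums 53.7 to 80.4 and 93.1 to 134. Epithelial and mesothelial sums overlapped, at 391 to 528 and 381 to 681. The part of these shifts in the levels of the 7 genes was not tested. In bulk RNA, fewer cells of a type and less RNA per cell cannot be told apart.

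Clca3a1 (chromosome 3, 144729677 to 144760977, minus strand) and Clca3a2 (chromosome 3, 144796559 to 144819494, minus strand) are neighbouring protein-coding genes 35582 bases apart; all coordinates are GRCm38 (mm10), 1-based. The 250 bases before the RefSeq start of Clca3a1 (GRCm38.p6, chr3:144760978-144761227, minus strand) are printed because they lie between the 2 genes, both low in GFP osteogenic libraries. Capitals mark a CCAAT box:
Clca3a1: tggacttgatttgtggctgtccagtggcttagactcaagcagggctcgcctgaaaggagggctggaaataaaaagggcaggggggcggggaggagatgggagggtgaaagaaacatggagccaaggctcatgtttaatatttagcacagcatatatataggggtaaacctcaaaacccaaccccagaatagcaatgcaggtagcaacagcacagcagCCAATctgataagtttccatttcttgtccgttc

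Clca3a1 had 789 and 801 normalised counts in THOC5 osteogenic libraries and 125 and 208 in GFP osteogenic libraries. The THOC5 growth libraries had 1135 and 1085, and the GFP growth libraries 855 and 710. The GFP osteogenic libraries were the lowest, and the THOC5 osteogenic libraries lay among the GFP growth libraries. On the log2(normalised count + 1) scale, used for every log2 change here, Clca3a1 was 2.30 ± 0.19 higher in THOC5 than in GFP cells in osteogenic medium (SE, n = 2 each). It was 2.27 ± 0.19 lower in GFP osteogenic than in GFP growth cells, a 4.71-fold lower mean.

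Clca3a2 had 1610.2 and 1839.8 normalised counts in THOC5 osteogenic libraries and 24.2 and 71.6 in GFP osteogenic libraries, which held 28 and 80 reads. In growth medium it had 2943 and 3860.2 in THOC5 libraries and 1985 and 1990.0 in GFP libraries. The GFP osteogenic libraries differed from each other by more than those of any other member on the log2 scale, yet lay far below all other libraries. The mean in THOC5 osteogenic cells was 36.0-fold that in GFP osteogenic cells (log2 change 5.33 ± 0.35), the highest difference of all genes tested. That log2 change was 4.57 without GFP osteogenic 1 and 6.09 without GFP osteogenic 2. The mean in GFP osteogenic cells was 41.5-fold lower than in GFP growth cells. Per kilobase of merged exons, Clca3a2 was the most abundant of the 7 in GFP growth cells, at 500.1 normalised counts, and in GFP osteogenic cells it stood at 12.0, below Clca3a1 at 42.6. The longest transcripts share sequence: 22.8% of the 50-base windows of Clca3a1 occur in Clca3a2 and 24.0% of those of Clca3a2 occur in Clca3a1. The split of reads between the pair is therefore uncertain.

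**Figure D1:**
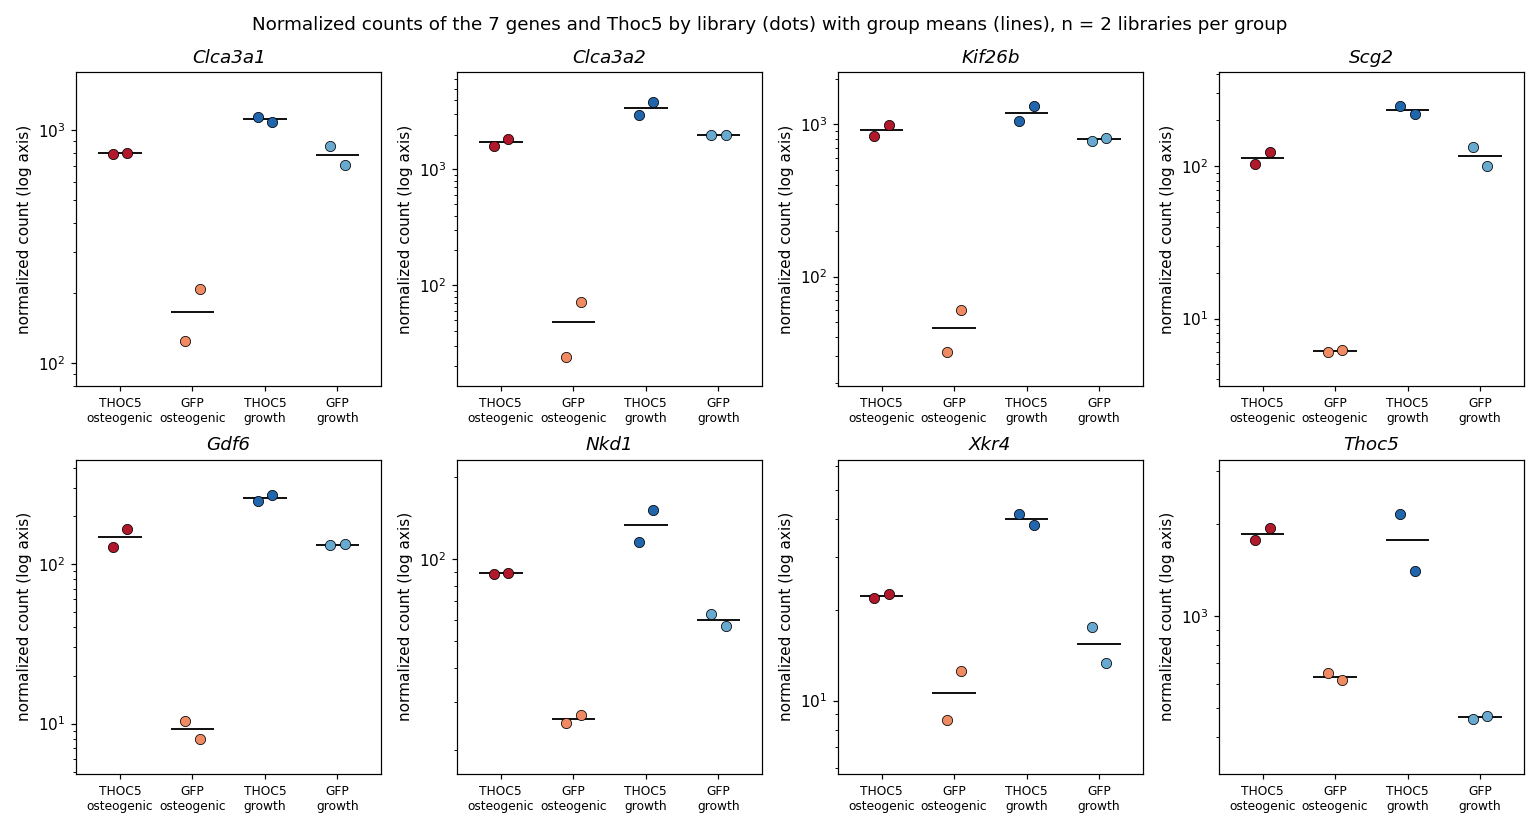
Normalised counts (log axis) of the 7 genes and of Thoc5 in each of the 8 libraries, with points for libraries and lines for group means, groups from left to right THOC5 osteogenic, GFP osteogenic, THOC5 growth and GFP growth. For all 7 genes the 2 GFP osteogenic libraries are lowest and the 2 THOC5 growth libraries highest, for example Clca3a2 at 24.2 and 71.6 against 2943 and 3860.2. For Xkr4 the margin is small, with 12.5 in GFP osteogenic 2 and 13.3 in GFP growth 2.

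Scg2 (chromosome 1, 79434669 to 79440120, minus strand) has a RefSeq start at 79440026, inside the GENCODE gene. Of the 250 bases before the RefSeq start, the 156 that lie before the GENCODE gene (GRCm38.p6, chr1:79440121-79440276, minus strand) are printed, since they hold a TCF/LEF core, in capitals, at -111 to -106 counted back from the RefSeq start:
Scg2: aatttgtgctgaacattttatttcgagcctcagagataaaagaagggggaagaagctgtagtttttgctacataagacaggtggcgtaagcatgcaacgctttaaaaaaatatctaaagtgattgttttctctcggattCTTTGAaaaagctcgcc

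Scg2 had 103 and 124 normalised counts in THOC5 osteogenic libraries and 6.05 and 6.26 in GFP osteogenic libraries, where each value rests on 7 reads. Its values without phosphate were 246 and 219.7 in THOC5 growth and 134 and 99.7 in GFP growth libraries. The THOC5 osteogenic and GFP growth libraries overlapped, and the GFP osteogenic libraries lay far below both. The THOC5 osteogenic mean was 18.4-fold the GFP osteogenic mean (log2 change 3.99 ± 0.20, or 3.40 with a pseudocount of 5), and the GFP osteogenic mean was 19.0-fold lower than the GFP growth mean (log2 change -4.03 ± 0.20, or -3.43 with a pseudocount of 5).

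Gdf6 (chromosome 4, 9844372 to 9862345, plus strand), which in mice takes part in joint and skull development, had 128 and 166 normalised counts in THOC5 osteogenic libraries and 10.4 and 8.05 in GFP osteogenic libraries, from 12 and 9 reads. In growth medium it had 247 and 270.3 in THOC5 libraries and 132 and 133 in GFP libraries. The pattern was that of Scg2, with THOC5 osteogenic and GFP growth libraries overlapping. The THOC5 minus GFP difference in osteogenic medium was 3.86 ± 0.18, and the GFP osteogenic mean was 14.4-fold lower than the GFP growth mean.

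Kif26b (chromosome 1, 178529125 to 178939200, plus strand) had 843 and 987 normalised counts in THOC5 osteogenic libraries and 32.0 and 59.9 in GFP osteogenic libraries. In growth medium it had 1056 and 1316 in THOC5 libraries and 784 and 814 in GFP libraries. Its THOC5 osteogenic libraries lay just above the GFP growth libraries. The THOC5 osteogenic mean was 19.9-fold the GFP osteogenic mean (log2 change 4.35 ± 0.22), and the GFP osteogenic mean was 17.4-fold lower than the GFP growth mean.

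Nkd1 (chromosome 8, 88521354 to 88594884, plus strand) had 88.1 and 89.2 normalised counts in THOC5 osteogenic libraries and 25.1 and 26.8 in GFP osteogenic libraries. Values of 116 and 151 were found in THOC5 growth libraries and of 62.9 and 57.2 in GFP growth libraries. Both THOC5 groups lay above both GFP groups. The THOC5 osteogenic mean was 3.42-fold the GFP osteogenic mean (log2 change 1.73 ± 0.19), and the GFP osteogenic mean was 2.31-fold lower than the GFP growth mean.

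Xkr4 (chromosome 1, 3205901 to 3671498, minus strand) had the lowest level per kilobase of merged exons of the 7 in each of the 4 groups, at 3.64 normalised counts in THOC5 osteogenic, 1.74 in GFP osteogenic, 6.54 in THOC5 growth and 2.52 in GFP growth cells. By library it had 21.8 and 22.5 normalised counts in THOC5 osteogenic libraries and 8.65 and 12.5 in GFP osteogenic libraries. In growth medium it had 41.5 and 38.2 in THOC5 libraries and 17.5 and 13.3 in GFP libraries. The GFP growth values rest on 15 and 10 reads and the GFP osteogenic values on 10 and 14, so the GFP groups were close in reads. The difference between GFP osteogenic and GFP growth cells was -0.51 ± 0.32 on the log2 scale, which ranked 4957 from the lowest of all genes tested. The THOC5 minus GFP difference in osteogenic medium was 1.02 ± 0.32. Xkr4 thus separated libraries by THOC5 more than by medium.

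All 7 genes had the THOC5 growth libraries highest and the GFP osteogenic libraries lowest, with no overlap between these groups and the ones next to them. Because the genes were chosen on it, the gap around the GFP osteogenic libraries is no result; 30.8% of all genes tested had both THOC5 libraries above both GFP libraries in osteogenic medium, and 28.9% had both GFP osteogenic libraries below both GFP growth libraries. Neighbouring groups in the middle of the order, THOC5 osteogenic and GFP growth, overlapped in Clca3a1, Scg2 and Gdf6. In Clca3a2 the THOC5 osteogenic libraries were below the GFP growth libraries, and in Kif26b, Nkd1 and Xkr4 above them. The differences between these groups were 0.03 ± 0.19 for Clca3a1, -0.21 ± 0.35 for Clca3a2, 0.19 ± 0.22 for Kif26b, -0.04 ± 0.20 for Scg2 and 0.14 ± 0.18 for Gdf6, all within about 1 SE of 0. They were larger for Nkd1 (0.56 ± 0.19) and Xkr4 (0.51 ± 0.32). Each SE comes from the shared fit of all 8 libraries, so it also carries the spread of the GFP osteogenic libraries, wide in Clca3a2. A difference within 1 SE therefore does not show that these groups were equal.

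As a share of the drop between GFP growth and GFP osteogenic cells, the THOC5 osteogenic level regained 101% for Clca3a1, 96.3% for Clca3a2, 105% for Kif26b, 99.1% for Scg2 and 104% for Gdf6, computed on log2 group means. The share was 147% for Nkd1 and 200.5% for Xkr4, since both lay above the GFP growth level. The value for Xkr4 divides by a small drop and ranged from 147% to 315% over the alternative settings. The median over the 7 genes was 104% (SD 4.63 over the 2 THOC5 osteogenic libraries). These shares follow from the values that chose the genes.

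Whether the genes also differed without phosphate was looked at in THOC5 against GFP cells in growth medium. The GFP growth libraries entered the choice of the genes, since restored expression is read against them. The name of the group does not refer to the THOC5 growth libraries, but their values were known when the genes were chosen, so the counts over the 7 genes in this comparison are a description. All 7 genes had higher means in THOC5 growth cells: 1110.1 ± 35.7 against 783 ± 103 for Clca3a1, 3401 ± 649 against 1987 ± 3.78 for Clca3a2, and 1186 ± 184 against 799 ± 20.7 for Kif26b (SD, n = 2 each). Scg2 had 233 ± 18.8 in THOC5 and 117 ± 24.3 in GFP growth cells, and Gdf6 259 ± 16.3 and 132 ± 0.879. Nkd1 had 133 ± 24.8 and 60.0 ± 4.08, and Xkr4 39.9 ± 2.34 and 15.4 ± 2.96. The libraries did not overlap in 7 of 7 genes, an order that 14.7% of all genes tested showed.

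None of the 7 differences passed the test. The log2 changes were 0.51 ± 0.19 for Clca3a1, 0.76 ± 0.35 for Clca3a2, 0.56 ± 0.22 for Kif26b, 1.00 ± 0.20 for Scg2, 0.96 ± 0.18 for Gdf6, 1.13 ± 0.19 for Nkd1 and 1.33 ± 0.32 for Xkr4. Limma's Benjamini-Hochberg adjusted p was 0.906 for each. This comparison called 0.00443% of the genes tested, 1 gene, which was Thoc5 itself. At an unadjusted p under 0.05 it held 7 of the 7 genes, against 5.10% of all genes tested. The choice of the genes may have raised that count, so it is no test of them as a group. edgeR on the recovered reads called 0 of the 7, with its lowest adjusted p of 0.0540 shared by Scg2, Gdf6 and Nkd1, and DESeq2 called 0, with a lowest adjusted p of 0.141. Over all alternatives the adjusted p of Scg2, Gdf6 and Nkd1 ran from 0.0540 to 0.985. The median difference of the 7 was 0.96, with a range of 0.51 to 1.33, beside -0.00 over all genes tested.

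**Figure D2:**
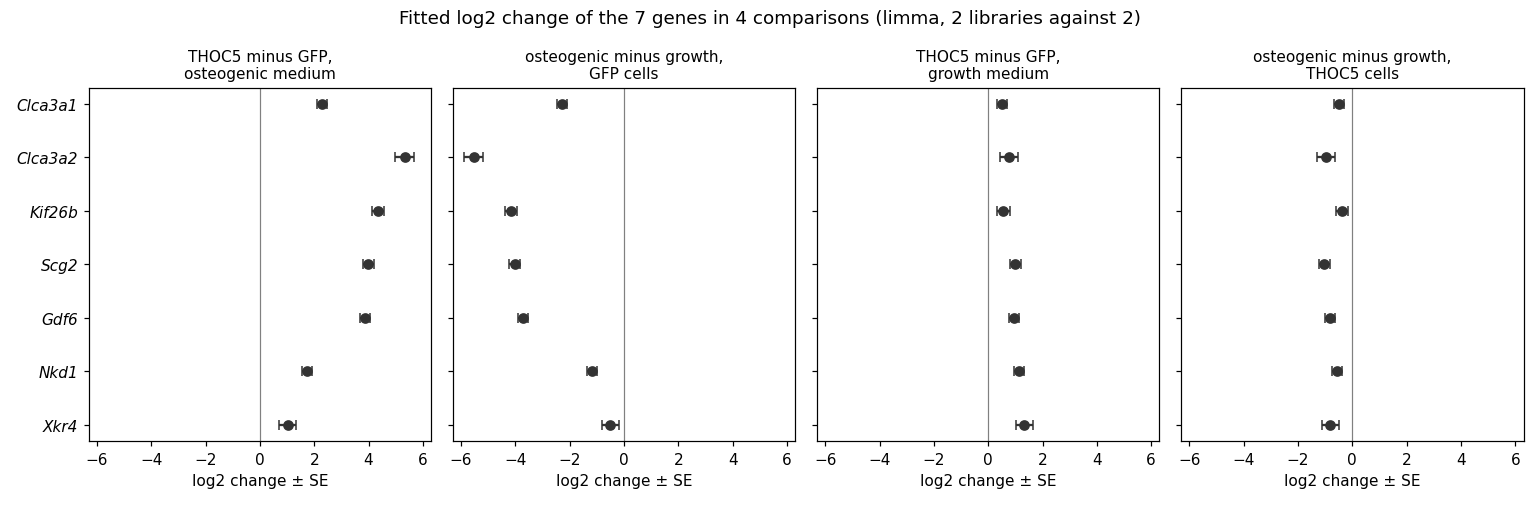
Differences on the log2(normalised count + 1) scale (points, with bars of 1 SE) for each of the 7 genes in the 4 comparisons. In growth medium the THOC5 minus GFP differences lie between 0.51 and 1.33, while in osteogenic medium they reach 5.33 for Clca3a2.

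The effect of osteogenic medium in THOC5 cells is given by THOC5 osteogenic against THOC5 growth libraries, of which the choice of genes used the osteogenic ones; counts over the 7 genes are again a description. This comparison shares the THOC5 growth libraries with the preceding one, so a high value there raises one difference and lowers the other. Means were 795 ± 8.43 in THOC5 osteogenic and 1110.1 ± 35.7 in THOC5 growth cells for Clca3a1, and 1725 ± 162 and 3401 ± 649 for Clca3a2 (SD, n = 2 each). They were 915 ± 101 and 1186 ± 184 for Kif26b, 113 ± 15.0 and 233 ± 18.8 for Scg2, and 147 ± 26.9 and 259 ± 16.3 for Gdf6. They were 88.7 ± 0.727 and 133 ± 24.8 for Nkd1, and 22.2 ± 0.508 and 39.9 ± 2.34 for Xkr4. The osteogenic libraries were lower without overlap in 7 of 7 genes, an order shown by 19.7% of all genes tested.

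The log2 differences ranged from -1.04 ± 0.20 for Scg2 to -0.37 ± 0.22 for Kif26b, with a median of -0.82, beside -0.01 over all genes tested. Clca3a2 stood at -0.97 ± 0.35, Gdf6 at -0.82 ± 0.18, Xkr4 at -0.82 ± 0.32, Nkd1 at -0.57 ± 0.19 and Clca3a1 at -0.48 ± 0.19. Limma called 0 of the 7, where 0.54% of all genes tested were called, 0.00886% as lower. Limma's lowest adjusted p was 0.0505, for Scg2, followed by 0.146 for Gdf6. At an unadjusted p under 0.05 this comparison held 6 of the 7, against 5.68% of all genes tested. That count, too, is not independent of the choice of the genes. The same holds for the call and adjusted p of each gene, since the THOC5 osteogenic libraries entered the choice. The call also depends on the tool. edgeR called Scg2 (adjusted p = 8.29e-04), Clca3a2 (adjusted p = 0.00358) and Gdf6 (adjusted p = 0.00400) as lower in THOC5 osteogenic cells, and DESeq2 called Scg2 (adjusted p = 0.00214) and Gdf6 (adjusted p = 0.0232). In the authors' deposited table the adjusted p was 0.00245 for Scg2 and 0.0257 for Gdf6. Leaving out a library could also turn the call: limma called Clca3a2 without GFP osteogenic 1 (adjusted p = 0.0128) or 2 (adjusted p = 0.0132), and Scg2 without GFP growth 1 (adjusted p = 0.0414) or 2 (adjusted p = 0.0375). Over all alternatives the adjusted p ranged from 8.29e-04 to 0.816 for Scg2, and to 1 for Clca3a2 and Gdf6.

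**Figure D3:**
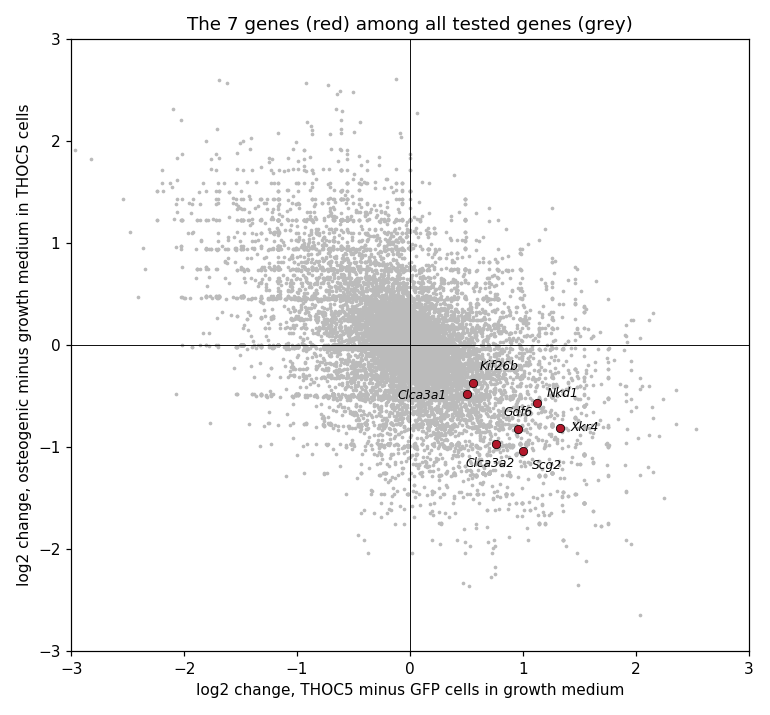
Each point is a gene, with the log2 difference of THOC5 minus GFP in growth medium on the x axis and of THOC5 osteogenic minus THOC5 growth on the y axis, and the 7 genes named. The 7 lie at positive x and negative y, between 0.51 and 1.33 on x and between -1.04 and -0.37 on y; both axes contain the THOC5 growth libraries.

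The full order, with THOC5 growth above GFP growth and above THOC5 osteogenic and with GFP osteogenic below both GFP growth and THOC5 osteogenic, held without overlap in 7 of 7 genes and in 490 genes overall (2.17% of those tested). Among the 2037 genes that limma called both lower in GFP osteogenic than in GFP growth cells and higher in THOC5 than in GFP cells in osteogenic medium, 27.3% had THOC5 growth above GFP growth without overlap, 28% had THOC5 osteogenic below THOC5 growth without overlap, and 15.5% had both. The median differences of the 2037 genes were 0.05 for THOC5 against GFP in growth medium and -0.03 for THOC5 osteogenic against THOC5 growth. These 2037 genes include 6 of the 7. The low place of the GFP osteogenic libraries in the order is what the 7 genes were chosen on, so 7 of 7 beside 2.17% is a description.

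The size of the THOC5 difference in osteogenic medium beyond that in growth medium separated the genes. It was 4.57 for Clca3a2, 3.79 for Kif26b, 2.99 for Scg2, 2.90 for Gdf6 and 1.79 for Clca3a1 on the log2 scale. Nkd1 had 0.61 ± 0.27 and Xkr4 -0.31 ± 0.45, so for Xkr4 the THOC5 minus GFP difference was of similar size in both media. These values use the libraries that chose the genes and carry no test.

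Likeness between genes was measured as the root mean square difference of centred log2 values over the 8 libraries, with small values meaning like profiles. Among the 21 pairs of members the closest were Gdf6 and Scg2 (0.216), Nkd1 and Xkr4 (0.329) and Kif26b and Scg2 (0.362). The farthest were Clca3a2 and Xkr4 (2.03), and the adjacent Clca3a1 and Clca3a2 differed by 1.45, with Clca3a2 much the lower relative to its own mean in GFP osteogenic cells. Over 11334 other genes, Draxin, a secreted guidance and Wnt-modulating protein, was nearest to Kif26b (0.160) and to Scg2 (0.363), and Sfrp2, a secreted frizzled-related protein, was nearest to Gdf6 (0.285). Cbr2, a carbonyl reductase, was nearest to Clca3a1 (0.0878), followed by the matrix protein gene Tnc (0.115) and the growth factor gene Vegfd (0.129). A2m, the protease inhibitor alpha-2-macroglobulin, was nearest to Clca3a2 (0.489), Ntn3 to Nkd1 (0.237) and Poln, a DNA polymerase, to Xkr4 (0.247). All values come from the same 8 libraries.

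The chromosomal neighbours mostly did not share the pattern. Sh3glb1, 9342 bases from Clca3a1, averaged 1850 normalised counts in THOC5 osteogenic, 1736 in GFP osteogenic, 1848 in THOC5 growth and 1955 in GFP growth cells. Clca3b, 3129 bases beyond Clca3a2, averaged at most 3.52 in any group. Smyd3, beside Kif26b, averaged 237 in THOC5 osteogenic, 226 in GFP osteogenic, 212 in THOC5 growth and 234 in GFP growth cells. Among the neighbours looked up, Kcne4 and Asph passed limma's test both for THOC5 against GFP in osteogenic medium and for GFP osteogenic against GFP growth, in the direction of the 7 genes. Of all 22575 genes tested, 2037 passed both in these directions. Kcne4, which encodes a regulatory subunit of potassium channels and lies 614641 bases from Scg2, averaged 358 in THOC5 osteogenic, 47.4 in GFP osteogenic, 462 in THOC5 growth and 311 in GFP growth cells. Kcne4 was higher in THOC5 than in GFP cells in osteogenic medium (log2 change 3.05 ± 0.34, limma adjusted p = 1.08e-04) and lower in GFP osteogenic than in GFP growth cells (-2.86 ± 0.34, adjusted p = 1.75e-04). Asph, aspartate beta-hydroxylase, 175028 bases from Gdf6, averaged 2489 in THOC5 osteogenic, 1574 in GFP osteogenic, 2300 in THOC5 growth and 2443 in GFP growth cells. Its log2 changes were 0.67 ± 0.13 for THOC5 against GFP in osteogenic medium (adjusted p = 0.00305) and -0.64 ± 0.13 for GFP osteogenic against GFP growth (adjusted p = 0.00425). Asph changed by -0.09 ± 0.13 for THOC5 against GFP in growth medium and by 0.12 ± 0.13 for THOC5 osteogenic against THOC5 growth, opposite in sign to the 7 genes. The nearest protein-coding gene with values on either side of each member was looked up, where there was one. Kcne4 and Asph were singled out after their values were seen. The neighbours were too few for the share that passed to be set apart from that of all genes.

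Motifs were searched on both strands in the 250 bases before the RefSeq starts of 4 genes, Clca3a1, Scg2, Kif26b and Nkd1. The TCF/LEF core CTTTGA, the binding core of the Wnt-responsive TCF and LEF factors, was found in Scg2 and Kif26b, 2 of 4, and in 13.9% of 32536 promoters. The CRE (TGACGTCA, a cAMP response element) was found in Scg2, at 79440087 to 79440094, inside the gene as GENCODE draws it, and in 1.56% of promoters. The CCAAT box was found in Clca3a1 and Kif26b and in 33.8% of promoters. TATAAA, the E-box CACGTG and the CArG box by name were found in 0 of 4, and in 12.3%, 6.04% and 1.48% of promoters. The RefSeq starts of Nkd1 and Scg2 lie inside the GENCODE genes, so these windows may not be the promoters used here.

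Genes of the pathways to which the members belong were counted without the members. In osteogenic medium, limma called 22% of all genes tested between THOC5 and GFP cells, 11.3% higher and 10.7% lower in THOC5 cells. Between GFP osteogenic and GFP growth cells it called 20.8%, 10.3% higher and 10.6% lower. Neither growth-medium THOC5 against GFP nor THOC5 osteogenic against THOC5 growth gave a call in any of the lists below.

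Of 20 genes tested in Wnt5a, Ror and planar polarity signalling, the setting of Kif26b, 9 were higher and 0 lower in THOC5 than in GFP cells in osteogenic medium, with a median log2 change of 0.32. In GFP osteogenic against GFP growth cells 0 were higher and 9 lower, with a median of -0.34. Ror1, a Wnt5a receptor, averaged 177 ± 18.8 normalised counts in THOC5 osteogenic and 70.5 ± 9.14 in GFP osteogenic cells (log2 change 1.32 ± 0.14, adjusted p = 9.53e-05). Fzd1, a frizzled receptor, averaged 538 ± 14.4 and 229 ± 21.6 in the same groups (1.23 ± 0.10, adjusted p = 1.74e-05). Scaling to library totals gave 7 higher and 2 lower in place of 9 and 0, and leaving out 1 library gave at least 6 higher.

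Of 21 tested targets and feedback genes of Wnt and beta-catenin signalling, the setting of Nkd1, 8 were higher and 3 lower in THOC5 than in GFP cells in osteogenic medium (median 0.26), and 3 were higher and 7 lower in GFP osteogenic than in GFP growth cells (median -0.16). Sfrp2 averaged 144 ± 22.9 in THOC5 osteogenic and 10.1 ± 0.862 in GFP osteogenic cells (log2 change 3.70 ± 0.18, adjusted p = 1.75e-06). Lgr5, a receptor for R-spondins, averaged 18.9 ± 0.219 and 4.82 ± 1.75 (1.81 ± 0.53, adjusted p = 0.0294). Ccnd1, cyclin D1, went the other way, with 1226 ± 86.2 in THOC5 osteogenic and 2127 ± 148 in GFP osteogenic cells (-0.79 ± 0.09, adjusted p = 1.43e-04), and so did Tcf7 (-1.10 ± 0.30, adjusted p = 0.0235). In place of 8 higher and 3 lower, the list had 3 and 1 without THOC5 osteogenic 1, 5 and 1 without THOC5 osteogenic 2, 4 and 1 without GFP osteogenic 1, 6 and 2 without GFP osteogenic 2, and 5 and 3 with scaling to library totals. For GFP osteogenic against GFP growth, leaving out 1 library gave 1 to 2 higher and 5 to 9 lower.

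Of 31 tested BMP and GDF ligands, receptors, inhibitors and targets, the setting of Gdf6, 16 were higher and 2 lower in THOC5 than in GFP cells in osteogenic medium (median 0.35), and 3 were higher and 16 lower in GFP osteogenic than in GFP growth cells (median -0.50). The ligand gene Gdf10 had 10.9 and 10.3 normalised counts in THOC5 osteogenic and 0 in both GFP osteogenic libraries (adjusted p = 0.00123), and 8.16 and 2.66 in GFP growth libraries. The ligand gene Bmp6 had 9.51 and 2.68 in GFP osteogenic and 0 in both GFP growth libraries (adjusted p = 0.0112), close to the counting floor. The ligand gene Gdf7 averaged 50.7 ± 5.37 in THOC5 osteogenic and 15.0 ± 0.355 in GFP osteogenic cells (log2 change 1.69 ± 0.36, adjusted p = 0.00623). The receptor genes Bmpr1b and Acvr2a were lower in THOC5 osteogenic cells: Bmpr1b averaged 23.5 ± 1.42 and 57.6 ± 0.747 (-1.26 ± 0.25, adjusted p = 0.00442), and Acvr2a 130 ± 8.13 and 244 ± 6.63 (-0.91 ± 0.12, adjusted p = 3.28e-04). Id4, a BMP-responsive inhibitor of transcription factors, averaged 34.0 ± 8.89 in GFP osteogenic and 91.3 ± 13.8 in GFP growth cells (-1.42 ± 0.23, adjusted p = 0.00148). In place of 16 genes higher in THOC5 osteogenic cells, 9 were called without THOC5 osteogenic 2, 10 without GFP osteogenic 1 and 11 without THOC5 osteogenic 1. In place of 3 higher and 16 lower in GFP osteogenic than in GFP growth cells, 0 and 11 were called without GFP osteogenic 1, and 2 higher with 12 to 15 lower without a THOC5 osteogenic, GFP growth or the other GFP osteogenic library.

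Of 15 other granin and regulated-secretion genes, the setting of Scg2, 3 were higher and 1 lower in THOC5 than in GFP cells in osteogenic medium (median 0.18), and 1 was higher and 4 lower in GFP osteogenic than in GFP growth cells (median -0.05). The peptide-processing enzyme genes Cpe (log2 change 1.24 ± 0.11, adjusted p = 2.15e-05) and Pam (1.27 ± 0.10, adjusted p = 1.26e-05) were both higher in THOC5 osteogenic than in GFP osteogenic cells. Cpe averaged 19944 ± 1407 in THOC5 osteogenic and 8471 ± 1054 in GFP osteogenic cells. Syt4, a synaptotagmin, had 0 in both THOC5 osteogenic and 6.92 and 7.16 in GFP osteogenic libraries (adjusted p = 0.00764). Pcsk2, a prohormone convertase, averaged 2.62 ± 1.18 in GFP osteogenic and 8.65 ± 0.953 in GFP growth cells (-1.45 ± 0.46, adjusted p = 0.0451). Syt4 and Pcsk2 lay close to the counting floor in the group where each was lower. Leaving out 1 library gave 2 to 3 higher and 0 to 1 lower in THOC5 osteogenic cells, and 0 to 1 higher and 2 to 3 lower in GFP osteogenic against GFP growth cells, with the count of 2 without GFP osteogenic 1, GFP osteogenic 2 or GFP growth 2. Scaling to library totals gave 2 and 2, and 1 and 2. Many genes of this list had few reads, and with a filter of at least 10 in at least 2 libraries only 4 were tested. Of these 4, 3 were higher and 0 lower in THOC5 than in GFP cells in osteogenic medium (median 0.90). In GFP osteogenic against GFP growth cells 0 were higher and 3 lower (median -0.90).

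Of 18 other genes of the XK family and lipid scrambling, 4 were higher and 3 lower in THOC5 than in GFP cells in osteogenic medium (median 0.02), and 0 were higher and 4 lower in GFP osteogenic than in GFP growth cells (median 0.11). Scaling to library totals changed these splits to 3 higher and 7 lower, and to 5 higher and 3 lower. Without THOC5 osteogenic 2 or GFP osteogenic 2 the THOC5 against GFP split was 3 higher and 1 lower, and without THOC5 osteogenic 1 it was 4 and 2. Bsg, basigin, an immunoglobulin-family membrane protein, averaged 20559.6 ± 717 in THOC5 osteogenic and 9525 ± 46.6 in GFP osteogenic cells (log2 change 1.11 ± 0.16, adjusted p = 5.19e-04). Vps13a, a lipid transfer protein, averaged 382 ± 63.1 and 590.4 ± 22.7 (-0.64 ± 0.12, adjusted p = 0.00251). Ano6, a calcium-activated scramblase, averaged 1795 ± 92.4 in GFP osteogenic and 2837 ± 168 in GFP growth cells (-0.66 ± 0.09, adjusted p = 3.43e-04). Xkr5 averaged 108 ± 16.8 in THOC5 osteogenic and 70.0 ± 3.53 in GFP osteogenic cells (log2 change 0.61 ± 0.16, adjusted p = 0.0201), and Xkr6 went the other way (-0.51 ± 0.16, adjusted p = 0.0447). The other CLCA genes were close to 0 reads, and 0 of the 3 tested were called in any comparison.

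Of 15 other THO and TREX genes, 0 were higher and 4 lower in THOC5 than in GFP cells in osteogenic medium (median -0.26), and 4 were higher and 0 lower in GFP osteogenic than in GFP growth cells (median 0.14). The helicase gene Ddx39 averaged 345 ± 17.6 in THOC5 osteogenic and 656 ± 98.2 in GFP osteogenic cells (log2 change -0.92 ± 0.12, adjusted p = 2.71e-04). Fyttd1, an export adaptor, averaged 609 ± 81.4 and 869.9 ± 16.9 (-0.52 ± 0.11, adjusted p = 0.00539). Alyref, another adaptor, averaged 569 ± 82.9 in GFP osteogenic and 396 ± 0.758 in GFP growth cells (0.52 ± 0.13, adjusted p = 0.0162). In place of 4 genes lower in THOC5 osteogenic cells, 1 was called without THOC5 osteogenic 2 and 9 with scaling to library totals. In place of 4 higher in GFP osteogenic cells, 1 was called without GFP osteogenic 1, 2 without either GFP growth library and 7 with scaling to library totals.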

How the data were processed

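Messenger RNA from 8 libraries of mouse vascular smooth muscle cells was sequenced with an unstranded TruSeq kit, as the labels' protocols name it. The authors deposited signal values, read counts divided by 1 factor per library, with genes named by symbol, and, for each of 4 comparisons, their own log2 fold changes, test scores and p-values, per the file headers. The submitters' processing notes name mm10, FastQC, Bowtie2, MACS2 and SAMtools, with no role. Whole reads were recovered for 100% of values (tolerance 1e-06). The main test was limma 3.58.1 in R 4.3.3 with a trended variance on log2(value + 1), over 22575 genes reaching a value of 1 in 2 or more libraries, 4 groups, no replicate block, 4 residual degrees of freedom, Benjamini-Hochberg adjustment and a threshold of 0.05. edgeR 4.0.16 and DESeq2 1.42.0 on recovered reads were alternatives. THOC5 against GFP in growth medium was also simulated, over 22487 genes with 100 changed at each size. Of genes changed 2-fold 88% were recovered, and of those changed 4-fold 100%, with 5 false calls. These shares hold for the simulated data only. In the real comparison Scg2, Gdf6 and Nkd1 had log2 changes of 1.00, 0.96 and 1.13, each with a limma adjusted p of 0.906. A gene not called there may therefore still have changed 2-fold.

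The 7 genes and all lists were chosen with earlier results of these data known. Pathway genes were named from the 2 largest passing changes in each direction and comparison, and like genes by the 3 smallest root mean square differences among genes averaging at least 20. Coordinates are from GENCODE M21 and promoter sequences from RefSeq (GRCm38.p6), with some not reported here. Immunoprecipitated RNA was not analysed here.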

Additional observations from a re-analysis of the deposited data

How the results depend on the processing

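No result of the 7 genes reversed direction under any alternative run. Genes called in THOC5 against GFP in growth medium were 0, in place of 1, with no filter, with only the 4 libraries compared and with the 6 libraries outside the GFP osteogenic group, a setting chosen after seeing the data. In THOC5 osteogenic against THOC5 growth, 37 genes were called with no filter, in place of 122. Of the 7 genes in that comparison, in place of 0, 1 was called with a pseudocount of 5 and 1 with a filter of at least 10 (Scg2 in both), 3 by edgeR, 2 by DESeq2 and 1, Clca3a2 (adjusted p = 0.0138), with the 6 libraries.

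Leaving out each library in turn gave 2250 to 4577 genes for GFP osteogenic against GFP growth (lowest without GFP osteogenic 1), 2014 to 5079 for THOC5 against GFP in osteogenic medium (2014 without THOC5 osteogenic 2, 2864 without THOC5 osteogenic 1, 2566 without GFP osteogenic 1), 0 to 1 for THOC5 against GFP in growth medium and 14 to 124 for THOC5 osteogenic against THOC5 growth (14 without THOC5 osteogenic 1, 33 without THOC5 osteogenic 2, 54 without THOC5 growth 2). Members called were 0 to 1 in the last of these and 0 in growth medium, and the median regained share was 100.8% to 107.3%. Where an arm kept 1 library, it was assumed to vary like the other groups.

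With a replicate block 4723, 4948, 1 and 123 genes were called in the same order of comparisons, with 0 members in the tested comparisons; correlations of same-numbered deviations ran from -0.161 to 0.347, so the numbers were not taken to pair samples. Scaling to library totals shifted the median of all genes by 0.127 in GFP osteogenic against GFP growth, with 3720 higher and 1686 lower calls in place of 2314 and 2384, and by -0.163 in THOC5 against GFP in osteogenic medium, with 1662 higher and 4063 lower in place of 2550 and 2413. The causes were not tested. Depth limits Scg2, Gdf6 and Xkr4, whose lowest values rest on 7 to 14 reads.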
